A study of Drosophila melanogaster with 4 samples.

Results

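The histone genes of Drosophila melanogaster were examined in an iCLIP experiment on Sister of Sex-lethal (Ssx), which binds RNA and is related to the splicing regulator Sex-lethal. iCLIP crosslinks RNA to protein with UV light and sequences the RNA that comes down with an antibody. Members were all rows whose gene name began with His1, His2A, His2B, His3, His4, His2Av, His3.3A, His3.3B or His4r, which gave 263 of 17175 listed intervals and 115 of 4841 listed genes. Of these, 242 intervals belonged to 111 copies of the repeated histone gene cluster and 21 to the single-copy genes His2Av, His3.3A, His3.3B and His4r. Copies of one family with equal mean in a table were taken as 1 observation, which left 104 distinct observations of cluster copies and 20 of single-copy genes.

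RNA crosslinked to protein was recovered from SL2 cells with a polyclonal rabbit antibody against Ssx in 2 libraries and with rabbit IgG in 2 control libraries. SL2 is Schneider's line 2, a male line of embryonic origin, and all 4 libraries came from it with no further treatment in the labels. Nothing in the labels tells whether both libraries of an antibody were made from cultures grown apart, and p-values therefore cover only the spread between these 4 libraries, possibly a technical one. The authors deposited DESeq2 statistics in separate tables for introns, coding sequence (CDS), 3′ UTRs and 5′ UTRs, with no column for a single library. Fold changes are given on the log2 scale with the authors' standard error. Positive values were taken to mean more signal in the Ssx IP than in the IgG control; this direction is likely, but the tables do not state it.

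Each deposited mean is a sum of whole reads in 4 libraries, each divided by a scaling factor, and the steps of the means gave the reads back. The solved libraries carry no names, are called a, b, c and d in order of the size of 1 read's step within each table, and were assigned to no sample or group. Letters do not match between tables. Over non-overlapping listed intervals there were 16978, 17025, 4628 and 1752 reads in 3′ UTRs, 2201, 1314, 2983 and 651 in CDS, and 3871, 3966, 696 and 352 in 5′ UTRs. The median interval held 5 reads in 3′ UTRs and 3 in each of CDS and 5′ UTRs. Of 10 genes chosen as markers of the male, haemocyte-like line, 4 were listed in 3′ UTRs (srp, vkg, crq and Col4a1). In introns 6 were listed, these 4, Pxn and roX2, a male dosage compensation RNA. The others, roX1, Hml, NimC1 and Sr-CI, were listed nowhere. No marker interval was called, but an adjusted p was listed for only 1 marker gene in 3′ UTRs and 2 in CDS.

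Replication-dependent histones are made in bulk during S phase, when new DNA is packaged into nucleosomes. In flies the genes for the linker histone (His1) and the core histones (His2A, His2B, His3 and His4) lie together in tandem repeats, and their mRNAs end in a conserved stem-loop instead of a poly(A) tail. Replacement histones come from single-copy genes with introns and polyadenylated mRNAs. His3.3A and His3.3B both encode the replacement histone H3.3, His2Av encodes the only H2A variant of the fly, and His4r encodes the same protein as the cluster's His4 genes.

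The listed cluster intervals lay on chromosome 2L between 21416953 and 21541681 (dm6), a span of 124.7 kb. The RefSeq annotation of Release 6 names 111 copies there, 23 each of His1, His2B and His3, 22 of His4 and 20 of His2A, and all 111 were listed in at least 1 table. The copies are nearly identical in sequence, and how reads that match several copies were placed is not given in the sources used here. A value of 1 copy is therefore not a measurement of that copy alone, and copies are not replicates. In 5′ UTRs, 16 copies of His4 had the same mean and the same 2 reads, 1 in each of libraries a and b. In CDS, 12 of 23 His3 copies shared 1 mean, as did 12 of 22 His4 copies. The single-copy genes lay elsewhere, His3.3B at X, 9152523 to 9156669, His3.3A at 2L, 5055058 to 5056149, His4r at 3R, 14625755 to 14626614, and His2Av at 3R, 26866929 to 26869220. All 263 intervals lay inside the gene they are named for, and none overlapped a listed interval of another gene on the same strand.

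His3.3B was the histone gene that passed the test, in its 3′ UTR. Both listed 3′ UTR intervals were higher in the Ssx IP, by 20.6-fold and 7.50-fold on the linear scale in the authors' deposited table. These folds are model estimates and not ratios of reads. No other histone interval was called in any of the 4 tables. Outside CDS, these 2 were the only histone intervals with an adjusted p, so no other histone UTR or intron interval could have been called. In the 3′ UTR table, 96 of 289 tested intervals (33.2%) were called higher and 2 (0.692%) lower, so a called interval is common there. The background was 10.7% higher and 0% lower among 122 tested 5′ UTR intervals, 3.62% higher and 5.57% lower among 1023 tested introns, and 0% in either direction among 1921 CDS intervals.

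The shorter His3.3B 3′ UTR interval (X, 9153238 to 9154111, minus strand, 874 bases) held 113, 67, 2 and 0 reads in libraries a to d. Reads from libraries a and b made up 98.9% of its 182 reads, and library d had none. Its log2 fold change was 4.37 ± 1.09 at a mean of 24.3 normalized reads (the authors' deposited table, DESeq2, adjusted p = 0.00129). The longer interval (X, 9152523 to 9154111, 1589 bases) contains the shorter one and held 134, 72, 6 and 2 reads. Its log2 fold change was 2.91 ± 0.85 at a mean of 29.9 (the authors' deposited table, DESeq2, adjusted p = 0.00531). The pair shares most of its reads and is not independent. The shorter interval kept its call when p-values were adjusted over all listed 3′ UTR intervals (adjusted p = 0.0238, from DESeq2 p-values), and the longer one lost it (0.0906).

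The bases found only in the longer interval (X, 9152523 to 9153237, 715 bases) held 32 reads, 21, 5, 4 and 2 in libraries a to d. This end of the 3′ UTR carried 4.48 reads per 100 bases, against 20.8 per 100 bases in the shorter interval. The shorter interval thus made up 55.0% of the bases and 85.0% of the reads. The share of reads from libraries a and b was 98.9% in the shorter interval and 81.3% in the distal stretch, against 84.2% over all non-overlapping listed 3′ UTR intervals. The distal stretch thus lay near the share of the whole table for libraries a and b together. It did not for each alone, with 21 reads in a and 5 in b, against 16978 and 17025 over the table. No fold change is listed for the distal stretch alone. By mean, the longer and the shorter interval ranked 35 and 47 of the 4299 listed 3′ UTR intervals.

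The rest of His3.3B was sparsely covered. The intron next to the listed 5′ UTR (X, 9154686 to 9156579, 1894 bases) held 19 reads, 2, 17, 0 and 0 in libraries a to d, with a log2 fold change of 2.15 ± 1.598 (the authors' deposited table, DESeq2, p = 0.179). A nested interval of 718 bases held 5 reads, all in library b, with 0.57 ± 1.49 (the authors' deposited table, DESeq2, p = 0.703). Most of the intron's reads thus came from 1 library, and neither interval has an adjusted p. The listed CDS interval of 129 bases held 3 reads from library c alone, with 0.83 ± 1.37 (the authors' deposited table, DESeq2, adjusted p = 0.855). The 5′ UTR of 90 bases held 2 reads, also from 1 library, with -1.36 ± 1.93 (the authors' deposited table, DESeq2, p = 0.480). Reads from 1 library only were held by 57.7% of non-overlapping listed CDS intervals and 46.0% of 5′ UTR intervals. Per 100 bases, the gene had 20.8 reads in the shorter 3′ UTR, 2.33 in CDS, 2.22 in the 5′ UTR and 1.003 in the longer intron interval.

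**Figure D1:**
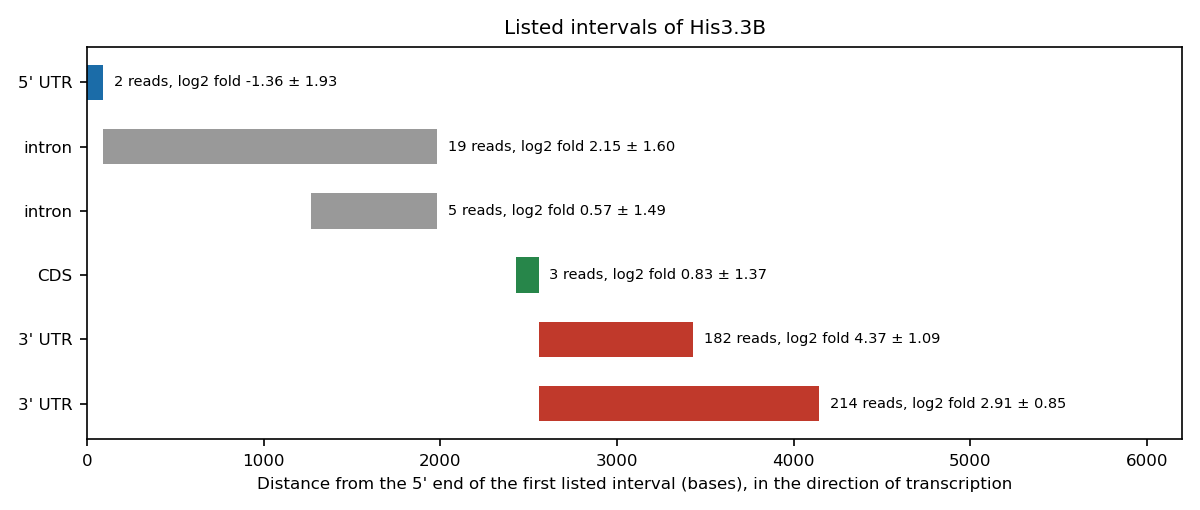
Each bar is 1 listed interval of His3.3B, placed by its distance in bases from the 5′ end of the gene in the direction of transcription, with the reads of 4 libraries together and the deposited log2 fold change ± SE. The 3′ UTR bars carry 182 and 214 reads, the other intervals 2 to 19.

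His3.3A, the second gene for H3.3, held few reads in every listed interval. Its 3′ UTR intervals (2L, 5055760 to 5055995 and 5055760 to 5056149, plus strand) held 3, 1, 1 and 0 reads and 3, 3, 1 and 0 reads in libraries a to d. Their log2 fold changes were 0.19 ± 1.77 and 0.58 ± 1.78 (the authors' deposited table, DESeq2, p = 0.915 and 0.743). These intervals held 5 and 7 reads, against 182 and 214 for His3.3B, and have no adjusted p. Scaled by length, the shorter interval had 2.12 reads per 100 bases in His3.3A and 20.8 in His3.3B. The difference in fold between these genes was not tested. The CDS interval of His3.3A, 129 bases like that of His3.3B, held 5 reads, all in library c, with 1.10 ± 1.41 (the authors' deposited table, DESeq2, adjusted p = 0.855).

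His4r and His2Av had negative values in most of their intervals, and none was called. Outside the CDS of His4r, none of these intervals has an adjusted p. The 3′ UTR of His4r, listed at 179 and 189 bases with the same reads (3R, 14626426 to 14626614, plus strand), held 3, 3, 7 and 0 reads. Its log2 fold change was -1.13 ± 1.59 (the authors' deposited table, DESeq2, p = 0.478). The His4r 5′ UTR intervals, of which the longest contains the other two, held 5, 3 and 2 reads at 262, 24 and 130 bases. Their values were -1.04 ± 1.95, -1.02 ± 1.98 and -0.41 ± 1.93 (the authors' deposited table, DESeq2, p = 0.593 to 0.832). The introns of His4r had -1.26 ± 1.62 from 4 reads and -0.78 ± 1.55 from 2 reads (the authors' deposited table, DESeq2, p = 0.437 and 0.614). The intron lies within the longest 5′ UTR interval, so these can hold the same reads. The CDS of His4r was positive at 0.42 ± 1.40 from 3 reads (the authors' deposited table, DESeq2, adjusted p = 0.904), which is below the median of 0.66 over all CDS intervals.

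His2Av was listed with 3 intervals in 3′ UTRs and 1 intron, all at the end of the gene. The interval with most reads (3R, 26868742 to 26869220, plus strand, 479 bases) held 7, 0, 4 and 3 reads, and its value was -1.32 ± 1.54 (the authors' deposited table, DESeq2, p = 0.392). The 100 bases before the intron (26868587 to 26868686) held 2, 1, 0 and 0 reads at 0.49 ± 1.69 (the authors' deposited table, DESeq2, p = 0.774). An interval of 322 bases that runs from there through the intron (26868587 to 26868908) held 3, 1, 3 and 0 reads at -0.59 ± 1.75 (the authors' deposited table, DESeq2, p = 0.735). The intron itself, 55 bases long (26868687 to 26868741), held 3, 1, 2 and 0 reads at -0.61 ± 1.62 (the authors' deposited table, DESeq2, p = 0.706). These few reads overlap between the listed intervals and are not separate observations.

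His1, His3 and His4 copies had a higher median of normalized reads per base in 3′ UTRs than in 5′ UTRs or CDS. Scaling differed between these regions and each listed histone interval held at least 2 reads, so this order is not separate from interval length. No cluster 3′ UTR had an unadjusted p under 0.05, against 195 of all 4299 listed 3′ UTR intervals. Few reads left little room for a small p. His1:CG33837, with 4 reads all in libraries c and d, reached only 0.124 (DESeq2 p). His2B:CG33868, with 11 reads all in a and b, reached only 0.313. The lack of small p-values therefore says little at these read numbers. Of 23 His2B copies, 1 was listed in 5′ UTRs, with 1.03 normalized reads per 100 bases from 2 reads on 46 bases. The median of the His2B 3′ UTRs was 0.547, and 1 copy at that minimum of reads allows no comparison. Among 3′ UTRs, 101 copies formed 52 distinct observations, of which 42 had a negative and 10 a positive fold change. Their median was -0.99 against 0.23 over all 4299 listed 3′ UTR intervals, and p-values ran from 0.124 to 0.982 in the authors' deposited table by DESeq2. None of them has an adjusted p, and their means of 0.421 to 4.36 lie below the lowest mean with one, 7.36, in the authors' deposited table. The sign followed the family, though observations of 1 family come from nearly identical copies, may share reads and are not replicates. All 9 observations of His1, all 19 of His2A, all 6 of His3 and all 8 of His4 were negative, and these also lay below the table median. All 10 of His2B were positive, of which 9 lay above the table median and His2B:CG33876 below it. Over all listed 3′ UTR intervals, 59.7% had a positive value.

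**Figure D2:**
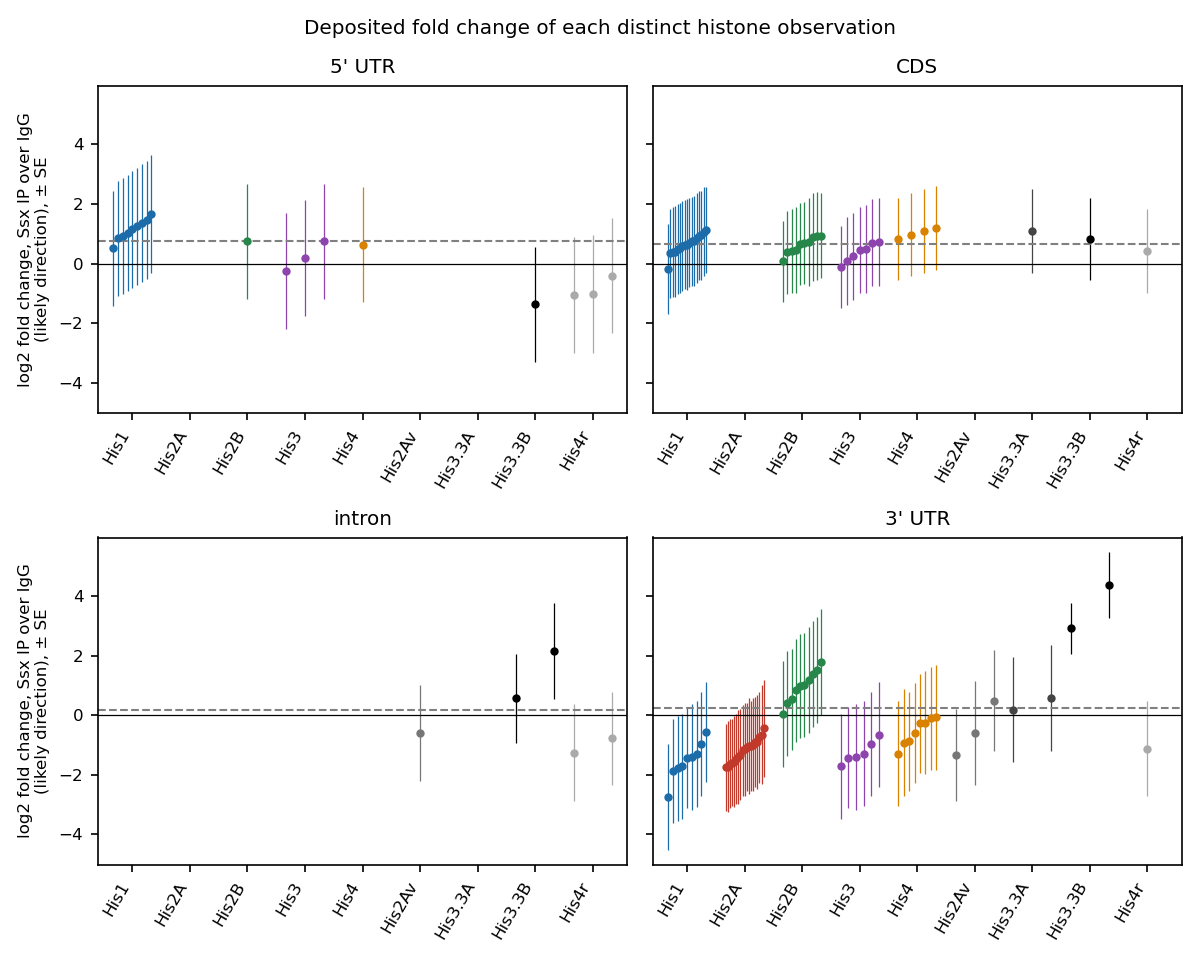
The y axis gives the deposited log2 fold change with its standard error for each distinct histone observation, with families along the x axis, a solid line at 0 and a dashed line at the median of all listed intervals of the table. In 3′ UTRs the His1, His2A, His3 and His4 points lie below 0 and the His2B points above it, while the 2 called His3.3B intervals stand at 2.91 and 4.37.

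His2A, a core histone that pairs with His2B, had the best covered of these intervals. Its 3′ UTR of 66 bases held 12 to 18 reads per copy, with 5 to 9 in library a, 0 to 1 in b, 3 to 9 in c and 0 to 2 in d. Libraries a and c held nearly all reads of each copy, and the copies overlapped throughout. The highest mean, 4.36, was that of His2A:CG33838 (2L, 21493850 to 21493915, plus strand), with 6, 1, 9 and 1 reads and a log2 fold change of -1.59 ± 1.46 (the authors' deposited table, DESeq2, p = 0.274). The values of the family spanned -1.75 (His2A:CG33820) to -0.45 (His2A:CG33808), with standard errors of 1.46 to 1.66, in the authors' deposited table. All 20 annotated copies were listed in 3′ UTRs, and none was listed in the 5′ UTR or CDS table.

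Per 100 bases, the His2A 3′ UTRs had a median of 5.42 normalized reads, 1.95 times that of the shorter His3.3B interval (2.78) and 30.8 times the median of all listed 3′ UTR intervals. They ranked between 18 and 76 of 4299 by this density. The densest histone 3′ UTRs by normalized reads were thus not those called. However, the His2A means of 2.50 to 4.36 lay below 7.36, the lowest mean with an adjusted p, so no His2A interval could have been called. In unscaled reads the densities were closer, at a median of 22.7 per 100 bases for His2A against 20.8 in the shorter His3.3B interval. No measure of mRNA abundance in SL2 cells was used here, so read density and mRNA abundance cannot be told apart. His2A 3′ UTRs span 66 bases, against a median of 690 over all listed 3′ UTR intervals. No listed histone interval held fewer than 2 reads, and at that minimum 66 bases already exceed the table's median density. The place of His2A above that median was thus set in advance, and its rank is not separate from interval length. Without scaling by length, the His2A means still lay above the table median of 1.05. Where a read that runs over the edge of so short an interval was counted is not given in the sources used here, and its part in the density was not tested.

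**Figure D3:**
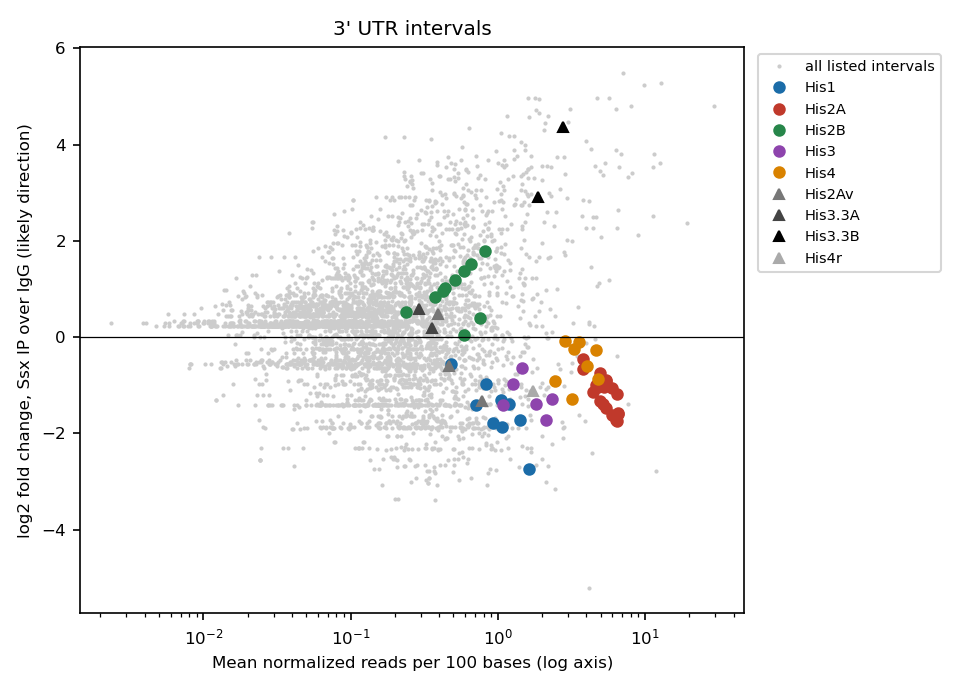
Each point is a listed 3′ UTR interval, with its mean normalized reads per 100 bases on a log x axis and its deposited log2 fold change on the y axis, histone observations in colour (circles for cluster copies, triangles for single-copy genes). His2A lies at 3.79 to 6.60 reads per 100 bases with folds below 0, and His3.3B at 1.88 and 2.78 with folds of 2.91 and 4.37.

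His4 came next, the core histone whose gene lies beside His3 in each repeat. Its 3′ UTR of 45 bases held 4 to 10 reads per copy and 2.44 to 4.77 normalized reads per 100 bases. The observation with the highest mean, 2.15, was His4:CG33901 (2L, 21453790 to 21453834, minus strand), with 4, 1, 3 and 1 reads and -0.88 ± 1.65 (the authors' deposited table, DESeq2, p = 0.595). The family ranged from -1.29 (His4:CG33881) to -0.07 (His4:CG33909) in the authors' deposited table. All of these values lay within 1 standard error of 0.

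His3 and His1 had few 3′ UTR reads. The 61 bases of the His3 3′ UTR held 2 to 5 reads per copy, 0 to 2 in library a, 0 in b, 2 to 3 in c and 0 to 1 in d. Values ran from -1.72 (His3:CG33806) to -0.65 (His3:CG33803) in the authors' deposited table, and 1 observation of 5 copies rested on library c alone. Over all non-overlapping listed 3′ UTR intervals, 23.2% held reads from 1 library only. The 93 bases of the His1 3′ UTR held 2 to 4 reads, again mostly in library c, with 1 to 3. The most negative value of all cluster copies was that of His1:CG33837 (2L, 21492471 to 21492563, plus strand), -2.74 ± 1.78 (the authors' deposited table, DESeq2, p = 0.124), from 0, 0, 3 and 1 reads.

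His2B was the family with positive 3′ UTR values. Its 177 bases held 3 to 11 reads per copy, 1 to 7 in library a, 1 to 4 in b, 0 in c and 0 to 1 in d. Library c, which held reads in every other cluster family's 3′ UTRs, had none here. The highest value was that of His2B:CG33868 (2L, 21537505 to 21537681, minus strand), 1.79 ± 1.77 (the authors' deposited table, DESeq2, p = 0.313), from 7, 4, 0 and 0 reads. The lowest was 0.04 ± 1.78 for His2B:CG33876 (the authors' deposited table, DESeq2, p = 0.982). The 3′ ends of His1 and His2B face each other across 136 to 142 bases. The difference between the families was not tested.

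**Figure D4:**
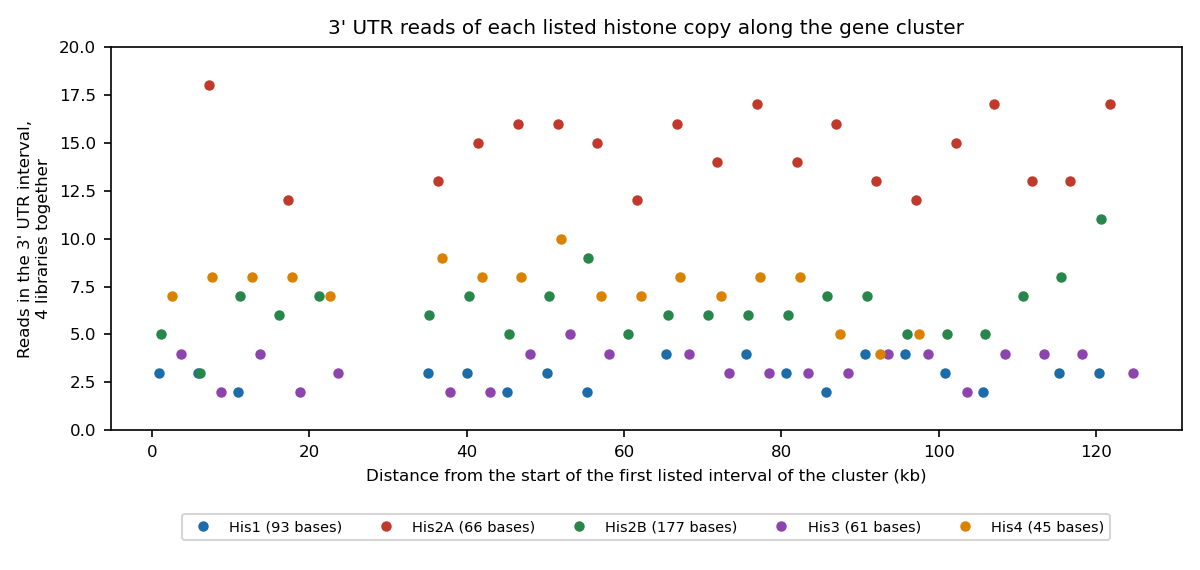
The x axis gives the distance of each listed 3′ UTR interval from the start of the cluster in kb, and the y axis its reads over 4 libraries, coloured by family. His2A copies hold 12 to 18 reads across the whole span, above every copy of the other families, which hold 2 to 11.

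The order of the families by 3′ UTR density ran partly with the length of the interval. Median normalized reads per 100 bases were 5.42 for His2A (66 bases), 3.44 for His4 (45 bases), 1.64 for His3 (61 bases), 1.05 for His1 (93 bases) and 0.547 for His2B (177 bases). The densities of His2A and His4 overlapped, as did those of His3 and His1, and those of His1 and His2B. The part of length in this order was not tested.

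In coding sequence the cluster families were close to all other genes. The 91 listed copies formed 38 observations, 36 with a positive fold change and 2 with a negative one, at a median of 0.68 against 0.66 over all 1921 CDS intervals. Relative to that table median, 19 lay above and 18 below, and 68.3% of all CDS intervals had a positive value. None was called (DESeq2 adjusted p of 0.855 or more in the authors' deposited table). An unadjusted p under 0.05 was held by 0 of the 38 and by 0 of all 1921 CDS intervals. The highest value was 1.19 ± 1.42 for His4:CG33895 in the authors' deposited table, from 6 reads that all came from library c. All 4 distinct His4 observations held reads of that library alone, at 3, 4, 5 and 6 reads. Reads from 1 library only are common there, at 57.7% of all non-overlapping listed CDS intervals. The highest mean was that of His1:CG33807 (2L, 21432122 to 21432892, plus strand), 2.80 at a fold of 0.64 ± 1.52 in the authors' deposited table, with 2, 4, 3 and 1 reads. The lowest value was -0.19 ± 1.51 for His1:CG33813 in the authors' deposited table. His2B held 2 to 5 reads per copy with values of 0.07 to 0.94, and His3 held 3 to 5 reads with -0.12 to 0.72, in the authors' deposited table.

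Reads per base were higher in the 3′ UTR than in the CDS of each cluster family that had both. The median was 16.7 reads per 100 bases in 3′ UTRs and 1.44 in CDS for His4, and 6.56 and 0.973 for His3. It was 3.67 and 0.806 for His2B, and 3.23 and 1.17 for His1. Among single-copy genes, His3.3A went the other way, at 1.96 in 3′ UTRs and 3.88 in CDS. His3.3B (17.1 and 2.33) and His4r (7.26 and 1.67) were higher in 3′ UTRs. Over all non-overlapping listed intervals the medians were 0.855 in 3′ UTRs and 0.601 in CDS. These are unscaled reads summed over 4 libraries of unequal depth. No listed histone interval held fewer than 2 reads, so copies with less are missing from these medians. At 2 reads, a 3′ UTR interval already held 2.15 reads per 100 bases in His1 and 3.28 in His3. The highest CDS values of these families were 1.43 and 1.22. The still shorter 3′ UTR of His4 has a higher minimum, against a highest CDS value of 1.92. For these families, interval length and that minimum thus set the direction among listed copies in advance.

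In 5′ UTRs, 50 copies formed 14 observations of 2 to 6 reads, and none was called or has an adjusted p. Their median log2 fold change was 0.89 against 0.74 over all 2159 listed 5′ UTR intervals. His1, with 159 bases, was listed in all 23 copies and had values of 0.51 to 1.67 in the authors' deposited table, 8 of 9 observations above the table median. The highest was that of His1:CG33825, also the highest mean of the cluster (1.18), with 3 reads in each of libraries a and b and 1.67 ± 1.98 (the authors' deposited table, DESeq2, p = 0.400). His1 values lay mostly above the table median in 5′ UTRs, on both sides of it in CDS and below it in 3′ UTRs. None of these was called. The 5′ UTR median equals the value of 2 reads in library b alone, as in His2B:CG33902. All His1 reads there were in libraries a and b, and its observations above the median held 3 to 6 reads. Their place above it is thus not separate from read number. His3 gave the lowest value, -0.25 ± 1.93 for His3:CG33806 and 7 other copies in the authors' deposited table, from 2 reads. The 16 listed His4 copies stood at 0.64 ± 1.93 and the 1 listed His2B copy, His2B:CG33902, at 0.74 ± 1.93 in the authors' deposited table. Cluster genes have no introns and were not listed in the intron table.

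Genes that act with histones were examined by list. It held 35 genes for histone mRNA processing, histone chaperones and exchange, other variants and the cell cycle. Of these, 11 were listed in 3′ UTRs, 8 in 5′ UTRs, 8 in CDS and 6 in introns, and none was called in either direction in any table. An adjusted p was listed for 2 of them in 3′ UTRs, 1 in 5′ UTRs, 8 in CDS and 0 in introns, and 1 interval, in an intron of stg, had an unadjusted p under 0.05. Df31, which encodes a nucleosome-assembly factor, had the best covered 3′ UTR, with a mean of 24.0 at -0.64 ± 0.79 (the authors' deposited table, DESeq2, adjusted p = 0.609). That mean is close to the 24.3 of the called His3.3B interval, with a value of opposite sign. The 5′ UTR of Df31 had -0.66 ± 1.55 (the authors' deposited table, DESeq2, adjusted p = 0.699).

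The stg 3′ UTR, of the Cdc25 phosphatase that drives entry into mitosis, had 0.74 ± 1.17 (the authors' deposited table, DESeq2, adjusted p = 0.682). An intron of stg reached 3.12 ± 1.52 (the authors' deposited table, DESeq2, p = 0.0403) without an adjusted p. In CDS the related genes with the highest means were Dek (-1.29 ± 1.42), Df31 (0.41 ± 1.47) and dom (-0.54 ± 1.44) (the authors' deposited table, DESeq2, adjusted p = 0.855 to 0.920). mxc, which organises the histone locus body where cluster genes are transcribed, was the one histone mRNA processing gene listed in 3′ UTRs. Its longer interval had 2.38 ± 1.74 (the authors' deposited table, DESeq2, p = 0.170) without an adjusted p, so it could not have been called.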

How the data were processed

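DESeq2 1.14.1, DESeq, Bowtie 0.12.7 and cutadapt 1.6 were used on the builds dm6 and BDGP6, per the submitters' processing notes. How reads were counted, and how duplicates, strand and multiple matches were handled, is not given in the sources used here. Per the file headers, the authors deposited a mean signal of normalized reads, a log2 fold change with its standard error, a test statistic (a score) and p-values, raw and adjusted. The statistic equalled fold over standard error, and the p-value its two-sided normal p, in every row. Each fold is a model estimate and not a ratio of reads. Values from few reads were small even where 1 library held them all, such as 1.19 ± 1.42 for the CDS of His4:CG33895 from 6 reads. Whether folds were pulled toward 0 at low read numbers was not tested. Folds of intervals with unlike read numbers are therefore not directly comparable. No differential test was run. The plan allowed for a count table with named libraries, and none was used here, so deposited statistics were counted and described, and carry no SD or n.

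Whole reads were solved from the steps of the means (Python 3.11.15, NumPy 2.4.6), taking the coarsest 4 steps, at a relative tolerance of 1e-13. All distinct means under 8 in each table (100%) gave 1 solution, as did all 263 histone intervals, with means up to 29.9. On simulated data with steps drawn at random, 300 of 300 sets of reads came back for each table. The 3′ UTR simulation reached a mean of 22.2, below the 24.3 and 29.9 of the His3.3B intervals, so it did not cover these. The reads rest on that choice of steps, describe unnamed libraries and entered no test. Each table has its own scaling, so folds are not compared between tables except relative to the table median.

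An interval was called at an adjusted p under 0.05. Members and lists were chosen with earlier results of these data known. All single-copy genes were to be named with values, and of the cluster copies those with an adjusted p, or else the highest mean and the extreme folds of each table. In CDS every interval has an adjusted p, so the latter rule was used there. Of related genes, up to 4 per table with an adjusted p and the highest means were to be named, and mxc and the intron of stg were added after their values were seen. Older names in the list were matched to RefSeq symbols, by position where several genes share one.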

Additional observations from a re-analysis of the deposited data

How the results depend on the processing

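The count of called 3′ UTR observations, 2 with the deposited adjusted p, was 1 when p-values were adjusted over all listed intervals of the table and 1 over the 4 tables together. In both cases the longer His3.3B interval was lost, at adjusted p-values of 0.0906 and 0.152 (from DESeq2 p-values), while the shorter one kept its call at 0.0238 and 0.0380. More intervals entering the adjustment accounts for this by construction. With the sign turned, the folds of the His3.3B intervals would be -4.37 and -2.91. The median over intron observations of single-copy genes, -0.61, became 2.15 with a mean of at least 2, because that left 1 His3.3B interval. The other 49 values recomputed under alternatives kept their side of the threshold, stayed within 1.5 times the count, or moved by less than the median standard error. The adjustments over intervals with an adjusted p and over a mean of at least 5 gave no value where no histone interval qualified. No paired analysis was possible because the tables hold no column for a single library. Leaving out a library and edgeR or DESeq2 fits were not run, because the solved reads name no sample or group. Outside the His3.3B 3′ UTR, histone intervals held 2 to 19 reads.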
